A study of Sus scrofa with 6 samples.

Results

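A set of 8 genes of the erythroid lineage was listed for description in pig lung: HBB and HBM (globin chains), AHSP (a chaperone of free alpha-globin), ALAS2 (the first enzyme of haem synthesis in erythroid cells), SLC4A1 and EPB42 (the band 3 anion exchanger and protein 4.2 of the red cell membrane), and GATA1 and KLF1 (transcription factors of red cell formation). Of the 8 listed genes, 5 were found among the 11744 genes measured, namely HBB, ALAS2, SLC4A1, EPB42 and KLF1, with 6 probe sets in all. HBM, AHSP and GATA1 were not found by symbol or by description, and no value is given under these names. Where a gene had more than 1 probe set, the one with the highest mean signal over the 6 arrays was taken, so probe sets were chosen by level of signal and not by the difference between the groups. The genes themselves were listed with earlier results of these data known, so the differences below describe them and are not independent evidence of a direction.

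The arrays measured RNA of lung biopsies from adult male German landrace pigs, taken the day after an extended partial hepatectomy that every animal of both groups had undergone. The 3 MSC-treated animals had received porcine mesenchymal stromal cells from bone marrow (pBM-MSC), differentiated towards hepatocytes in culture, by central venous infusion. The 3 control animals had received the Ringer vehicle alone. No lung of an animal spared the resection was among these arrays, so each difference compares MSC-treated with control animals after the same operation. The series' design text speaks of liver biopsies, whereas the sample labels give lung.

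A circulating red cell has lost its nucleus, and the youngest ones, the reticulocytes, still carry the messenger RNA for globin, ALAS2 and membrane proteins. A biopsy of a blood-rich organ such as the lung therefore brings the RNA of its blood along with that of the tissue. Globin and membrane protein transcripts outlast the nucleus, while the regulators that switch these genes on, GATA1 and KLF1, belong mainly to the nucleated precursors of the marrow. In such bulk samples, fewer cells of a type and less RNA per cell cannot be told apart.

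Values are log2 signals, on which a step of 1 is a doubling, and differences are MSC-treated minus control. A gene is called past the thresholds when limma's unadjusted p is under 0.05 and the log2 fold change is at least 0.5 in size, the study's own rule. By this rule 220 of 11744 genes were called, 77 higher and 143 lower in MSC-treated lungs. After Benjamini-Hochberg adjustment over all genes none had an adjusted p under 0.05 (0.0%), and 324 had an unadjusted p under 0.05. In simulated sets of 11744 genes, 200 of them changed, the same thresholds called 363.1 unchanged genes on average, more than the 220 called here. Noise in these sets was drawn independently for each gene, without features shared by the genes of an array, so the counts are not strictly comparable. With no gene at an adjusted p under 0.05, a call alone does not set a gene apart from unchanged ones. An exact permutation test of 3 against 3 animals cannot give a p under 0.1.

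A pair of features of the arrays bears on all that follows. The first is control replicate 1. It was the highest array for 4 of the 5 genes, against 13.9% of all genes, and it led the next array by at least 1 log2 unit in 38 of the 11744 genes (0.324%), against 12, 20 and 7 genes led in that way by MSC-treated replicates 1, 2 and 3 and 10 and 5 genes by control replicates 2 and 3. Correlations between arrays ran from 0.963 to 0.989. The antigenomic control probe sets, which match no pig sequence, averaged 3.88 on this array, the lowest of the 6. The second is a mark, the letters b-T, in the array names of MSC-treated replicate 2 and control replicates 1 and 3. These 3 arrays had the lowest antigenomic means, 3.90 in MSC-treated replicate 2 and 3.88 and 4.03 in control replicates 1 and 3, against 4.23 and 4.14 in MSC-treated replicates 1 and 3 and 4.24 in control replicate 2. No label says what it stands for. The study's methods name a processing batch in the lung that its authors corrected, but these values do not carry that correction. The mark was tied to the animals through identical values in the 2 deposited tables, not through a label.

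HBB, the beta chain of adult haemoglobin, was the only one of the 5 genes past the thresholds, and it was lower in MSC-treated lungs. Its probe set read 6.48, 7.85 and 7.96 in MSC-treated lungs, against 9.48, 7.91 and 8.69 in control lungs. The groups overlapped, since MSC-treated replicate 3 lay just above control replicate 2, and the extremes were MSC-treated replicate 1 and control replicate 1. The means were 7.43 ± 0.82 in MSC-treated and 8.69 ± 0.78 in control lungs (SD, n = 3 each), a log2 fold change of -1.26 ± 0.49 (SE; limma p = 0.0346, adjusted p = 1.0; exact permutation p = 0.2). This count of 1 gene of 5 stands beside 1.22% of all genes called lower. Without control replicate 1 the difference was -0.87 ± 0.48 (SE) and HBB was no longer called. With the b-T mark as a covariate it was -0.96 ± 0.41 (SE), just outside the thresholds, when 1.23% of all genes were called lower. It was -1.23 between the marked arrays (1 MSC-treated and 2 control animals) and -0.69 between the unmarked ones (2 MSC-treated and 1 control animal).

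The identity of this HBB probe set was not clear. Its 17 probes were annotated to HBB through a cDNA clone of blood mononuclear cells, and the cytoband given for it is on chromosome 9, but the position given for it is on chromosome 3. There it lies 3199 bases past the end of a probe set for a gene described as haemoglobin subunit zeta-like. In the RefSeq annotation of Sscrofa11.1, HBZ, HBM and HBQ1 of the alpha-globin cluster are on chromosome 3, whereas HBB and HBE1 are on chromosome 9. Which globin transcript the probes read was not tested.

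The other HBB probe set, with 21 probes, lies on chromosome 9 at 9:5632715-5634344 on the minus strand of Sscrofa10.2, next to HBE1. It read 5.05, 5.85 and 5.41 in MSC-treated lungs, against 6.84, 6.14 and 6.38 in control lungs. All 3 MSC-treated lungs lay below all 3 control lungs. The means were 5.43 ± 0.40 in MSC-treated and 6.45 ± 0.35 in control lungs (SD, n = 3 each), a log2 fold change of -1.02 ± 0.26 (SE; limma p = 0.00529, adjusted p = 0.999 over all 19124 main probe sets; exact permutation p = 0.1, the smallest this design allows). In that fit 0.999% of all probe sets were called lower, and 3.69% had MSC-treated arrays all below the control arrays. The mean of this probe set over the 6 arrays, 5.94, was above the means of 15 of the 23 antigenomic probe sets. For the chromosome 3 probe set all 23 lay below.

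The chromosome 9 probe set depended less on any single animal. It stayed past the thresholds when each of the 6 arrays was left out in turn, with log2 fold changes between -1.23 and -0.83, and without control replicate 1 it was -0.83 ± 0.28 (SE). With the mark as a covariate it was -0.84 ± 0.20 (SE) and still called, and it was -0.76 between the marked arrays and -0.92 between the unmarked ones. The chromosome 3 probe set lost its call without MSC-treated replicate 1 (-0.79), control replicate 1 or control replicate 3 (-1.26 ± 0.59 SE).

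**Figure D1:**
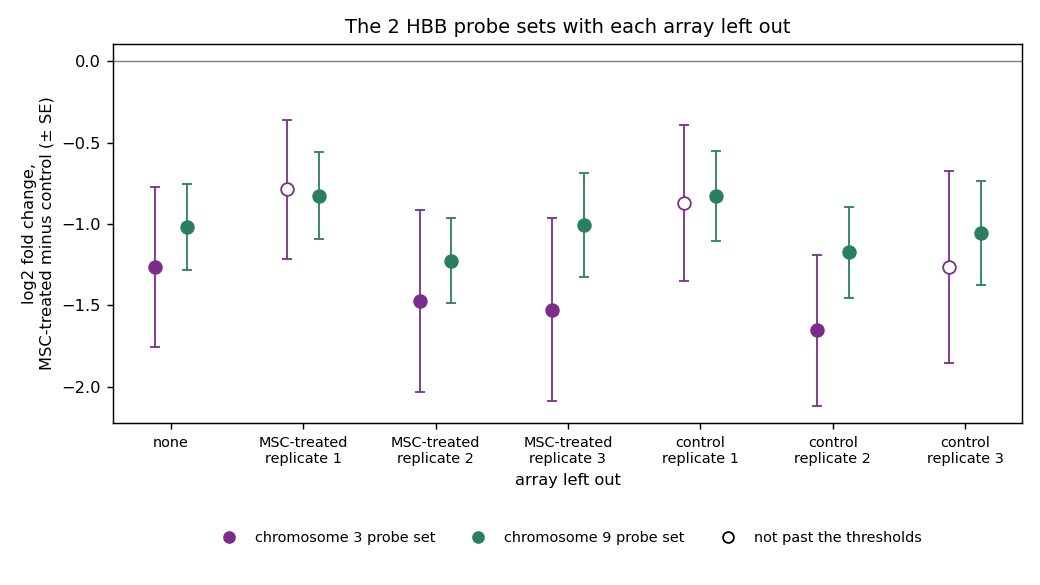
Log2 fold change of the 2 HBB probe sets, MSC-treated minus control, over all 6 arrays and with each array left out (x axis). Points are fitted values with their SE and open points did not pass the thresholds; the chromosome 9 probe set stayed between -1.23 and -0.83 and past the thresholds throughout, while the chromosome 3 probe set lost its call without MSC-treated replicate 1, control replicate 1 or control replicate 3.

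The neighbours of both HBB probe sets did not pass the thresholds. HBZ, the zeta-like embryonic alpha-type chain on chromosome 3, read 5.79, 5.69 and 5.79 in MSC-treated lungs, against 5.76, 5.62 and 5.75 in control lungs, a log2 fold change of 0.05 ± 0.14 (SE). An unnamed probe set for a bone marrow clone, which starts 662 bases past the HBZ probe set and ends 1747 bases before the HBB one, read 4.09, 4.60 and 4.65 in MSC-treated lungs, against 4.92, 4.56 and 4.61 in control lungs (log2 fold change -0.25 ± 0.21 SE). HBM lies next to HBZ in the RefSeq annotation, and whether this clone is HBM was not tested. HBE1, the embryonic beta-type chain on chromosome 9, read 3.99, 4.34 and 4.21 in MSC-treated lungs, against 4.60, 4.45 and 4.18 in control lungs (log2 fold change -0.23 ± 0.18 SE). The last 2 lie close to the antigenomic mean, so little of their signal stands above background. No alpha-globin gene of the adult was among the genes measured by symbol or description.

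**Figure D2:**
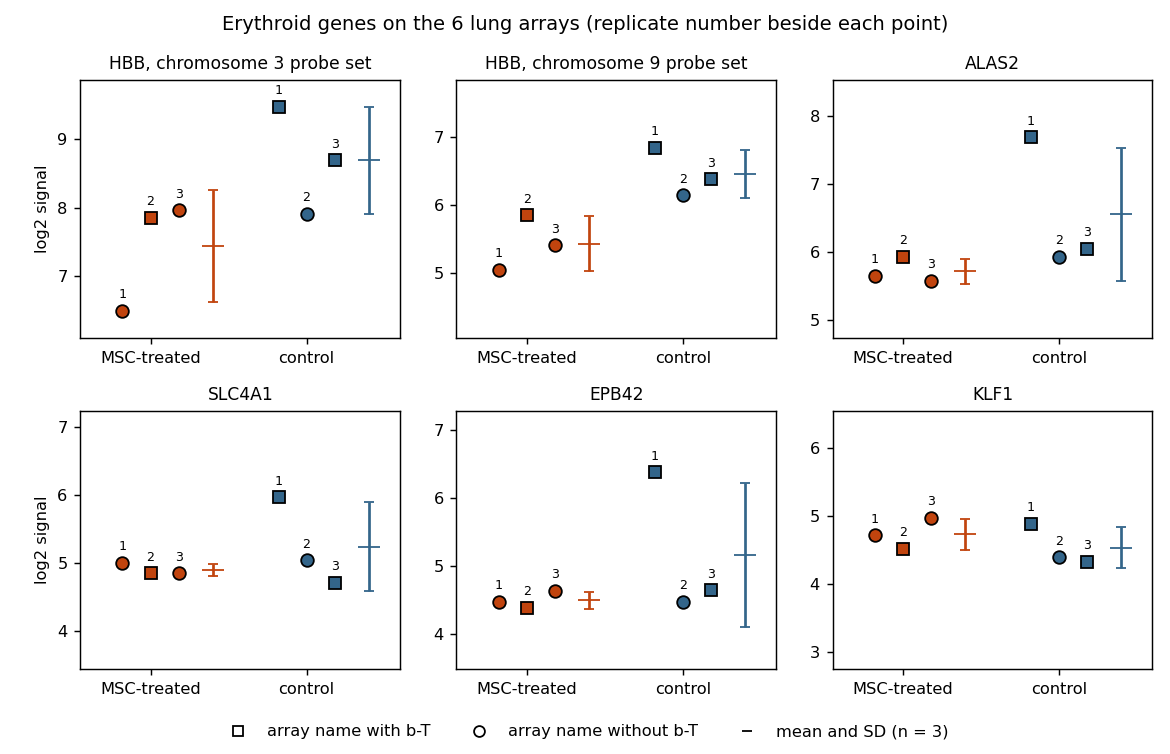
Log2 signal of each probe set on the 6 arrays, MSC-treated left and control right, with the replicate number beside each point, squares for array names with b-T and circles for the rest, and bars for the mean and SD (n = 3 each). Every panel spans the same number of log2 units. Control replicate 1 is the highest point for both HBB probe sets, ALAS2, SLC4A1 and EPB42, and for ALAS2 and EPB42 the other 5 arrays lie close together.

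ALAS2 (X:53824566-53826420, minus strand, Sscrofa10.2, by the description of its transcript) is put on the plus strand by the array's own position. Its probe set carried a provisional symbol, which was named ALAS2 through the RefSeq gene annotation. It read 5.65, 5.93 and 5.58 in MSC-treated lungs, against 7.69, 5.93 and 6.06 in control lungs. Control replicate 1 stood 1.63 above the next array, while the other 5 arrays spanned 0.47. The means were 5.72 ± 0.19 in MSC-treated and 6.56 ± 0.98 in control lungs (SD, n = 3 each), a log2 fold change of -0.84 ± 0.44 (SE; limma p = 0.0938; exact permutation p = 0.2), which did not pass the thresholds. Without control replicate 1 it was -0.27 ± 0.20 (SE), and of the 6 fits with an array left out only the one without control replicate 2 called the gene (-1.15 ± 0.43 SE).

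EPB42, which ties band 3 to the membrane skeleton and was likewise named through the RefSeq annotation, showed the same array standing furthest apart. It read 4.47, 4.39 and 4.64 in MSC-treated lungs, against 6.38, 4.47 and 4.64 in control lungs, so that control replicate 1 led by 1.74 and the other 5 arrays spanned 0.25. On those 5 arrays the antigenomic means were 3.90 to 4.24, so little of their signal stood above background. The log2 fold change was -0.66 ± 0.46 (SE; limma p = 0.192; exact permutation p = 0.3). Without control replicate 1 it was -0.06. It was -1.12 between the marked arrays and 0.08 between the unmarked ones, which do not include that animal.

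SLC4A1 (12:19179152-19196571, minus strand, Sscrofa10.2), the chloride and bicarbonate exchanger of the red cell, read 5.0, 4.85 and 4.85 in MSC-treated lungs, against 5.97, 5.05 and 4.72 in control lungs. Control replicate 1 led by 0.92 over a spread of 0.33 in the rest. The log2 fold change was -0.34 ± 0.31 (SE; limma p = 0.299; exact permutation p = 0.6), and without control replicate 1 it was 0.02. KLF1 (2:66451872-66455605, minus strand, Sscrofa10.2), which switches on the adult beta-globin gene, was the exception to this order of arrays. The array's own position puts its probe set on the plus strand. It read 4.72, 4.52 and 4.97 in MSC-treated lungs, against 4.89, 4.39 and 4.33 in control lungs, a log2 fold change of 0.20 ± 0.21 (SE; limma p = 0.380; exact permutation p = 0.4), and its signal was within about 1 log2 unit of the antigenomic mean on every array.

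For 4 of the 5 genes the size of the lead of control replicate 1 was uncommon among all genes. Of the 11744 genes, 10 had a larger lead of that array than EPB42, 13 than ALAS2, 44 than SLC4A1 and 66 than HBB. KLF1 had no such lead (-0.08), and 2585 genes had a larger value. As a mean over the 5 genes, each centred on its own average, the arrays stood at -0.48, -0.24 and -0.15 in MSC-treated lungs, against 1.13, -0.20 and -0.06 in control lungs. The 2 other control lungs thus lay among or near the MSC-treated ones. The median log2 fold change of the 5 genes was -0.66, beside -0.003 over all genes; with the mark as a covariate it was -0.52, between the marked arrays -0.94, between the unmarked ones -0.12, and without control replicate 1 -0.06. The marked arrays, adjusted for treatment, read higher by 0.90 for HBB, 0.63 for ALAS2, 0.44 for EPB42 and 0.11 for SLC4A1, and for KLF1 the term was -0.06.

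**Figure D3:**
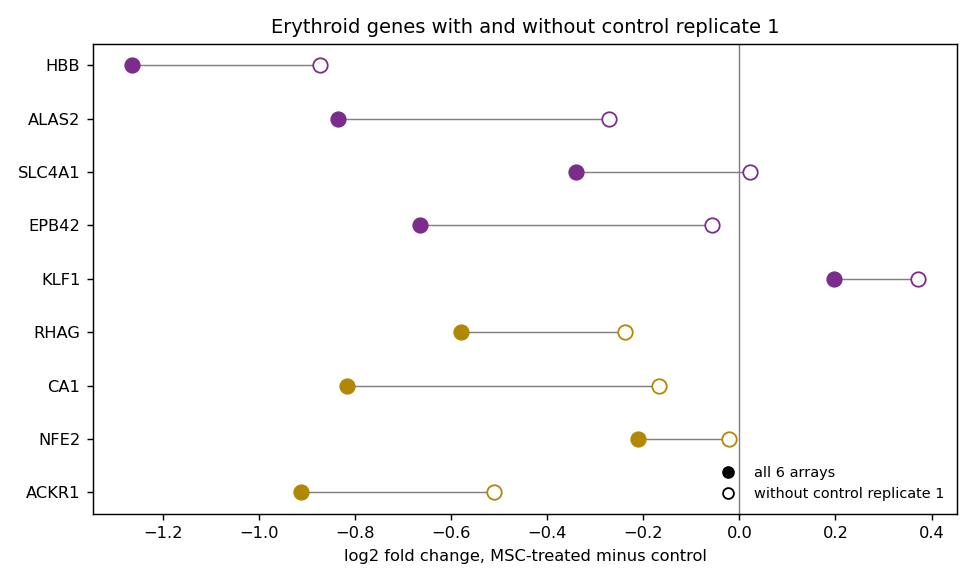
Log2 fold change, MSC-treated minus control, of the 5 genes (purple) and of 4 other erythroid genes (ochre), over all 6 arrays (filled) and without control replicate 1 (open). All but KLF1 moved towards 0 without that array, EPB42 to -0.06 and SLC4A1 to 0.02, while HBB stayed at -0.87. The 4 ochre genes were all highest in that array, as only 15 of the 45 other erythroid genes were. Their shift is therefore no separate evidence, and not all of the 45 moved towards 0.

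The rest of the red cell programme was read from 45 further genes in 5 lists. Of these, 1 passed the thresholds and was lower in MSC-treated lungs, 0 were higher, and the median log2 fold change of the 45 was -0.04. The 1 of 45 is close to the 1.22% of all genes called lower. ACKR1, the Duffy chemokine receptor, which venular endothelium carries too, read 6.62, 6.93 and 7.12 in MSC-treated lungs, against 8.60, 7.05 and 7.75 in control lungs, with overlap (log2 fold change -0.91 ± 0.37 SE, limma, adjusted p = 1.0). It did not pass without control replicate 1 (-0.51) or with the mark as a covariate (-0.72), and it passed in 1 of the 6 fits with an array left out.

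The lead of control replicate 1 was seen in part of these lists. CA1, the carbonic anhydrase of red cells, read 3.03, 3.07 and 2.65 in MSC-treated lungs, against 5.03, 3.08 and 3.09 in control lungs, so that this array led by 1.94 and the rest lay under the antigenomic mean. RHAG, the Rh-associated glycoprotein, read 3.82, 3.81 and 4.07 in MSC-treated lungs, against 5.16, 4.34 and 3.93 in control lungs, and did not pass (-0.58 ± 0.30 SE). Control replicate 1 was the highest array for 15 of the 45 genes, against 13.9% of all genes.

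No gene of these lists but ACKR1 passed over all 6 arrays. Of 10 genes of haem synthesis and iron import, 0 passed the thresholds and the median was -0.08, with PPOX at -0.19, TSPO2 at -0.17 and TFRC, the transferrin receptor, at -0.29. Of 12 membrane and skeleton genes, 11 did not pass, ACKR1 being the exception, and ICAM4 had the opposite sign at 0.33. Of 5 red cell enzymes 0 passed, with a median of -0.37, where PRDX2, an abundant red cell peroxiredoxin, was at -0.42 and catalase (CAT) at -0.37. Without MSC-treated replicate 2, PRDX2 and CAT passed and this median was -0.55, but that fit called 609 of the 11744 genes, against 220 over all 6 arrays. Without control replicate 1 the median was -0.17. Of 16 regulators 0 passed, with a median of -0.02, and here NFE2, a partner of globin gene activation, was at -0.21 and BNIP3L, needed for the removal of mitochondria from reticulocytes, at -0.41, and past the thresholds without MSC-treated replicate 2. Of 6 genes that clear free haemoglobin or store its iron 0 passed, with haptoglobin (HP) at -0.11.

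Markers of other blood and lung cells moved with the same array in part. All 8 neutrophil genes measured were highest in control replicate 1, and their mean centred signal was -0.20, -0.55 and -0.65 in MSC-treated lungs, against 1.38, 0.21 and -0.19 in control lungs. Of these 8, 3 passed the thresholds and were lower in MSC-treated lungs, namely TCN1 (-2.02), VNN2 (-1.42) and the calgranulin S100A12 (-0.99), where 1.22% of all genes were called lower. With an array left out the number was 1 (without MSC-treated replicate 3) to 5 (without control replicate 3), and the methods' t-test called 0. The list's median was -0.81, and -0.21 without control replicate 1. All 3 calls held without that array, TCN1 at -1.26, VNN2 at -1.38 and S100A12 at -0.58, when 207 of 11744 genes were called. They also held with the mark as a covariate. Of 7 platelet genes, only the chemokine PPBP passed (-0.72), a call lost under the b-T covariate (-0.55), without control replicate 1 (-0.57) and in 3 of the other 5 fits with an array left out. The platelet mean centred signal was -0.25, 0.29 and -0.29 in MSC-treated lungs, against 0.39, -0.30 and 0.17 in control lungs, and 5 were highest in that array. T cell genes averaged -0.22, 0.69 and -0.26 in MSC-treated lungs, against 0.09, -0.33 and 0.04 in control lungs, and genes of the alveolar epithelium -0.16, -0.13 and 0.19 in MSC-treated lungs, against -0.08, 0.08 and 0.09 in control lungs. Neither list had a gene past the thresholds over all 6 arrays, though 3 T cell genes were called higher with the mark as a covariate, when 1.66% of all genes were. Of 9 NK and cytotoxic cell genes, the receptors KLRD1 (1.04) and KLRK1 (1.02) passed and were higher in MSC-treated lungs, where 0.656% of all genes were called higher. Neither passed without control replicate 1, but of the 6 fits with an array left out KLRK1 passed in 5 and KLRD1 in 1. The median of this list was 0.30, against -0.09 without MSC-treated replicate 2 and 0.34 without control replicate 1. With the mark as a covariate 5 of the 9 were called higher. The part that blood content of the biopsies, other blood cells or the b-T mark had in the erythroid values was not tested.

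**Figure D4:**
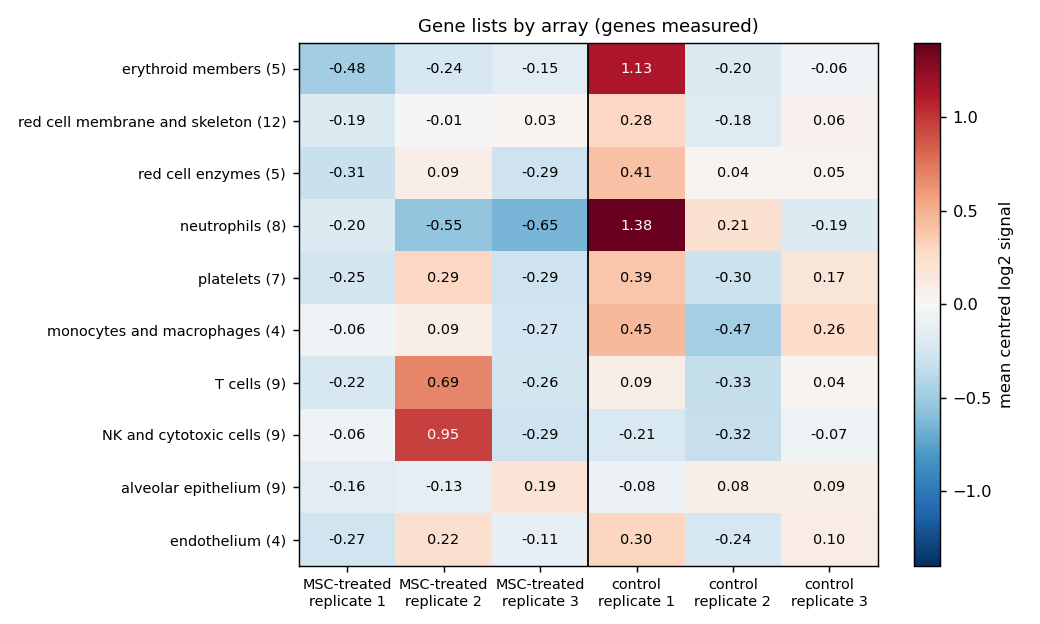
Mean centred log2 signal of each gene list (rows, with the number of genes measured) on each array (columns, MSC-treated left of the line and control right). Control replicate 1 is the highest column for the erythroid genes at 1.13 and for the neutrophil genes at 1.38. With smaller values it is also the highest for monocytes and macrophages (0.45), red cell enzymes (0.41) and platelets (0.39). The same holds for endothelium (0.30) and for red cell membrane and skeleton (0.28). T cell and NK and cytotoxic cell genes are highest in MSC-treated replicate 2, and alveolar epithelium genes in MSC-treated replicate 3.

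Among genes with a plain symbol, those whose pattern over the 6 arrays was most like the mean of the 5 genes were KCNJ2 (r = 0.988), CXCR7 (0.985), TIMM29 (0.984), PADI4 (0.984), WDR87 (0.977), IL1R2 (0.976), IL1B (0.974), SQSTM1 (0.973), SEMA3F (0.973) and NOS3 (0.973), where Pearson's r over 6 arrays describes mostly the distance of 1 array. PADI4, a protein deiminase abundant in neutrophils, read 4.89, 5.13 and 5.01 in MSC-treated lungs, against 7.42, 5.15 and 5.13 in control lungs. CXCR7, an atypical chemokine receptor, read 5.96, 6.76 and 6.94 in MSC-treated lungs, against 9.30, 6.97 and 7.34 in control lungs. In both genes the 2 other control lungs lay within 0.5 of the highest MSC-treated lung.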

How the data were processed

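Lung RNA of 6 pigs, 3 MSC-treated and 3 control, was read on 1 array an animal, of the Affymetrix type Porcine Gene 1.0 ST. The deposited values are log2 signals that the authors made by RMA (background correction, quantile normalization, probe set summary) in Expression Console 1.4, per the submitters' processing notes. Of 27558 probe sets, the 19124 of the main category were used and 8434 (controls and the like) were not; of those used, 12882 were tied to 1 gene (109 through the description), 241 carried several symbols and 6001 none. The highest-mean probe set of each of 11744 genes was tested with limma 3.58.1 in R 4.3.3, two-sided, with Benjamini-Hochberg adjustment over all genes; the script was tested on simulated data. Probe levels were not compared with one another. Precision is limited by the number of arrays.

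The members and lists were chosen with earlier results of these data known. Open to naming were all members with every probe set, up to 4 genes of each other list by smallest p, and erythroid genes past the thresholds. No gene of the T cell, B cell, monocyte and macrophage, alveolar epithelium or endothelium lists was named. The 10 genes most like the members' mean were taken among plain symbols. Provisional symbols, and those opening in lower case or holding a hyphen, were left out of that ranking. Deposited table columns were tied to samples by name, and for the b-T mark by values equal in all 27558 probe sets. Planned searches of promoters and a comparison of globin proteins were not run, and no sequence is printed. Of the genes in these lists, 2 are not reported here and are in none of the lists' counts and medians.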

Additional observations from a re-analysis of the deposited data

How the results depend on the processing

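The count of genes past the thresholds, 220 in the reported fit, was 340 with the b-T mark as a covariate, 425 with the mark removed before the fit, 79 by the methods' t-test, 21 at a fold change above 2, 362 over all main probe sets, and 182 to 609 with each array left out (609 without MSC-treated replicate 2, 469 without control replicate 2). No gene had an adjusted p under 0.05 in the reported fit, and 1 had with the mean of a gene's probe sets; with each array left out the count stayed at 0. Of the 5 erythroid genes, 1 passed, HBB by its chromosome 3 probe set. With the mark as a covariate, by the methods' t-test or with the replicate block 0 passed, and with the mark removed before the fit 1 did. With each array left out 0 to 2 passed (0 without control replicate 1, control replicate 3 or MSC-treated replicate 1, and 2 without control replicate 2). In fits over all main probe sets, the chromosome 9 HBB probe set stayed called with the mark as a covariate and with each array left out. HBB kept its negative sign in every setting run, and the members' median log2 fold change ranged from -1.01 to -0.06 with each array left out. The log2 fold change of SLC4A1 was 0.0222 without control replicate 1 (range -0.6042 to 0.0222 with each array left out), that of KLF1 was -0.0934 within the marked arrays and that of EPB42 was 0.0836 within the other arrays, each with the opposite sign to the reported fit. The cause was not tested. The difference between marked and other arrays, a median of 0.44 over the members, was -0.08 to 0.94 with each array left out.

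Replicate numbers did not pair the animals: deviations of same-numbered arrays correlated at -0.41, -0.49 and 0.06, so the replicate block, under which 0 erythroid genes passed and the members' median stayed at -0.66, shares only a number. The other deposited table held the same values. The chromosome 9 HBB probe set and the fit over all main probe sets were added after seeing the data. The precision is limited by 3 animals a group. Outside control replicate 1, the signals of EPB42, KLF1 and SLC4A1 lay less than 1 log2 unit above the antigenomic mean. Those of ALAS2 and of the chromosome 3 HBB probe set lay further above it on every array. So did the chromosome 9 HBB probe set, except in MSC-treated replicate 1 (5.05, against an antigenomic mean of 4.23).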
